A study of Mus musculus with 6 samples.

Results

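The 35 genes described here are targets of FOXN1 that the study labelled on a heat map of the 2 subsets of cortical thymic epithelial cells (cTEC), taken without the labelled chemokine, Notch, proteasome, protease inhibitor and serine pathway genes. All 35 were found by symbol among the 39179 genes of the count table, and all 35 passed the filter on low counts that left 15576 genes for testing. The study drew its heat map from targets that differed between these same libraries and had a mean above a minimum level. A lower level in Cxcl12DsRed- cTEC is therefore what chose the genes. The values below describe how large each difference was, how much expression remained and how the genes varied among libraries, and the direction itself is not a finding.

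FOXN1 is a forkhead transcription factor without which the thymic epithelium does not form a working thymus. In cTEC it drives genes for the chemokines and Notch ligands that draw in and commit thymocyte progenitors, and for the proteases that make the peptides on which thymocytes are positively selected. Its binding sites carry the core GACGC, and its target genes also include many with no known part in T-cell development, such as ion channels, cytoskeletal regulators and metabolic enzymes.

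RNA came from untreated Cxcl12DsRed mice at 10 weeks of age, in which the red fluorescent protein DsRed reports transcription of *Cxcl12*. Cells were sorted as CD45-EpCAM1+UEA1-Ly51+ and divided by the reporter into Cxcl12DsRed- cTEC (3 libraries, from experiments A, B and C) and Cxcl12DsRed+ cTEC (3 libraries, from the same experiments). Both subsets carry the same reporter allele and came from the same gate, so a subset is a state of the reporter and not a genotype. The libraries were made from poly(A) RNA with a low-input amplification kit.

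The libraries held 34574900 to 51042679 counts in genes, and all levels below are CPM, read counts relative to TMM-scaled library size. The DsRed transcript stood at 22.3 ± 5.11 CPM in Cxcl12DsRed- cTEC and at 1414 ± 605 CPM in Cxcl12DsRed+ cTEC (SD, n = 3 each), a residual of 1.58%. *Epcam* was at 179 to 229 CPM in Cxcl12DsRed- cTEC and 63.6 to 131 CPM in Cxcl12DsRed+ cTEC, and *Enpep*, which encodes Ly51, was at 71.4 to 73.5 CPM in Cxcl12DsRed- cTEC and 123 to 145 CPM in Cxcl12DsRed+ cTEC, so the markers of the gate were present in every library. A list of 11 cTEC and epithelial markers summed to 5066 to 8750 CPM in Cxcl12DsRed- cTEC and 6188 to 10600 CPM in Cxcl12DsRed+ cTEC. Every Cxcl12DsRed- library lay below every Cxcl12DsRed+ library for 5 of the 11 and above for 3, beside 9.32% and 9.73% of all tested genes. The list includes *Foxn1* and *Psmb11*, both labelled on the heat map. *Ptprc*, which encodes CD45, was at 4.03 to 23.5 CPM in Cxcl12DsRed- cTEC and 0.619 to 15.6 CPM in Cxcl12DsRed+ cTEC. The Cxcl12DsRed- library of experiment C was closer to the Cxcl12DsRed+ libraries of A and B than to its own group. Its log2 CPM correlated at 0.866 (A), 0.840 (B) and 0.802 (C) with the Cxcl12DsRed+ libraries. With the other Cxcl12DsRed- libraries it correlated at 0.822 (A) and 0.769 (B). The Cxcl12DsRed- libraries of A and B correlated at 0.773 with each other. Genes of other cell types also differed between the subsets. The summed level of 20 tuft cell markers was 899 to 5083 CPM in Cxcl12DsRed- cTEC and 86.8 to 144 CPM in Cxcl12DsRed+ cTEC, and that of 8 secretory epithelial markers 1579 to 6370 CPM in Cxcl12DsRed- cTEC and 64.3 to 91.9 CPM in Cxcl12DsRed+ cTEC. Fibroblast and pericyte markers (14 genes) summed to 4149 to 5210 CPM in Cxcl12DsRed- cTEC and 2231 to 2392 CPM in Cxcl12DsRed+ cTEC. For 8 myeloid markers the sums were 137 to 858.5 CPM in Cxcl12DsRed- cTEC and 22.9 to 82.3 CPM in Cxcl12DsRed+ cTEC. Gene by gene, every Cxcl12DsRed- library lay above every Cxcl12DsRed+ library for 18 of the 20 tuft and all 8 secretory markers. That held for only 1 of the 14 fibroblast and pericyte markers and 2 of the 5 myeloid markers tested, beside 9.73% of all tested genes. The sums of 8 mTEC and 15 thymocyte markers overlapped between the subsets. In the other direction, 22 endothelial markers summed to 226 to 256 CPM in Cxcl12DsRed- cTEC, against 1265 CPM (A), 1277 CPM (B) and 9435 CPM (C) in Cxcl12DsRed+ cTEC. The part of these cell types in the results below was not tested. In bulk RNA, fewer cells that express a gene and less of its RNA per cell cannot be told apart.

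Of the 35 genes, 27 had promoter windows in the RefSeq table used here (GRCm38.p6), each reaching from 250 bases before a transcription start and 300 bases long. GACGC was searched on both strands, as GACGC or GCGTC, and no other motif was searched. It was found in the windows of 16 of the 27 genes (59.3%), against 48.2% of the 11264 tested genes with a window. Counted by window, the shares were 51.4% for the labelled targets and 42.4% for all tested genes. Windows rich in G and C hold such letters more often. Among windows of at least 60% G and C the share was 55.0% (11 of 20) for the labelled targets and 56.3% for all tested genes, and below 60% it was 46.7% (7 of 15) for the labelled targets and 27.8% for all tested genes. A match is a description of the letters and not a measured binding site.

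The stretches below are shown because they set the 2 motif classes beside the expression values. *Mfsd12* and *Fkbp1a*, which did not pass the test described below, hold the motif on each strand before the start. The windows of *Kcnn3* and *Slc46a2*, which both passed it, hold none. Of the other genes that passed, *Scn4b*, *Ralb* and *Ndrg3* hold the motif in a window, *Plekhb1* holds none and *Prss16* has no window. Each stretch is the 130 bases before the transcription start, 5′ to 3′ on the strand of the gene, outside any annotated exon, with GACGC or GCGTC in capitals.
Mfsd12, chr10:81357361-81357490, plus strand: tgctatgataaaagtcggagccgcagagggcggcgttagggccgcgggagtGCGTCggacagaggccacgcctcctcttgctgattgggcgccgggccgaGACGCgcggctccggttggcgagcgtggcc
Fkbp1a, chr2:151542353-151542482, plus strand: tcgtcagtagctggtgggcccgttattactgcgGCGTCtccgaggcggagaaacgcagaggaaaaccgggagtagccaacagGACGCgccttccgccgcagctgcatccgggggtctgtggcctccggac
Kcnn3, chr3:89520034-89520163, plus strand: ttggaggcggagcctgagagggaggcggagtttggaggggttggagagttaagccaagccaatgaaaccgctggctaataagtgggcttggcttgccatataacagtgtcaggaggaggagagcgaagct
Slc46a2, chr4:59915057-59915186, minus strand: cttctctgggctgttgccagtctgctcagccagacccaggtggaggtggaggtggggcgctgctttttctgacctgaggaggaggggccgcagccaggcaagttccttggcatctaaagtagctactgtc
The 16 genes with the motif kept a median residual of 31.3% (0 to 49.6%), the 11 with windows but no motif 22.6% (0.597 to 43.3%) and the 8 without a window 24.1% (2.62 to 44.8%). The ranges of these classes overlapped over nearly their whole length.

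The residual used throughout is the mean CPM in Cxcl12DsRed- cTEC as a percentage of the mean CPM in Cxcl12DsRed+ cTEC. It ran from 0 for *Creg2* to 49.6% for *Fkbp1a*, with a median of 27.25% (quartiles 13.0% and 39.6%). Residuals were at or below 5% for 6 genes, above 5% and up to 10% for 2, above 10% and up to 25% for 8, and above 25% and up to 50% for 19. So 27 of the 35 genes kept more than 10% of their level. Only *Creg2* and *Stc2* lay below the residual of the DsRed transcript itself. In absolute terms, 33 genes still had a mean of at least 1 CPM in Cxcl12DsRed- cTEC, 27 at least 10 CPM and 9 at least 100 CPM, while in Cxcl12DsRed+ cTEC 35, 33 and 22 did. *Foxn1* was at 83.0, 135 and 53.8 CPM (experiments A, B and C) in Cxcl12DsRed- cTEC and at 291, 276 and 156 CPM in Cxcl12DsRed+ cTEC, a residual of 37.6%. *Cxcl12* kept 17.7%. Of the other labelled targets left out of this set, *Dll4* kept 2.42%, *Psmb11* 3.95% and *Ccl25* 8.25%, while *Psat1*, *Gcat*, *Cstb*, *Hey1* and *Hes6* kept 34.2 to 42.4%, and the libraries of *Hes6* overlapped between the subsets.

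Every labelled target had all 3 Cxcl12DsRed- libraries below all 3 Cxcl12DsRed+ libraries, a pattern that 9.32% of all tested genes showed. All 35 were lower within each of the 3 experiments, as were 17.5% of all tested genes. Their median log2 fold change was −1.88 (−10.12 to −1.01), and that of all tested genes was 0.02. The value of −10.12 is that of *Creg2*, which had 0 counts in every Cxcl12DsRed- library, so its size is not fixed by the counts. It ran from −10.45 to −7.68 over 19 settings of the analysis. By the quasi-likelihood test of edgeR, adjusted over all 15576 genes after Benjamini and Hochberg, 7 of the 35 were called lower in Cxcl12DsRed- cTEC at an adjusted p under 0.05, and 0.173% of all tested genes were: *Prss16*, *Scn4b*, *Plekhb1*, *Ndrg3*, *Ralb*, *Kcnn3* and *Slc46a2*, with adjusted p of 0.0319 to 0.0444. All 35 had an unadjusted p under 0.05, as had 1840 of all genes. edgeR's likelihood ratio test called 33 of the 35 (2.12% of all tested genes) and DESeq2 35 (2.42%). Because the genes were chosen on this contrast, nothing is read from these counts. With the experiment as a replicate block, 0.135% of all tested genes were called lower, and 5 of the 35 were: *Prss16* (adjusted p = 0.0251), *Tbata* (0.0387), *Slc46a2* (0.0449), *Fabp5* (0.0455) and *Kcnn3* (0.0482), all from edgeR's quasi-likelihood test. No call was made without the Cxcl12DsRed- library of A or B or without any Cxcl12DsRed+ library, and 3 were called without the Cxcl12DsRed- library of C.

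**Figure D1:**
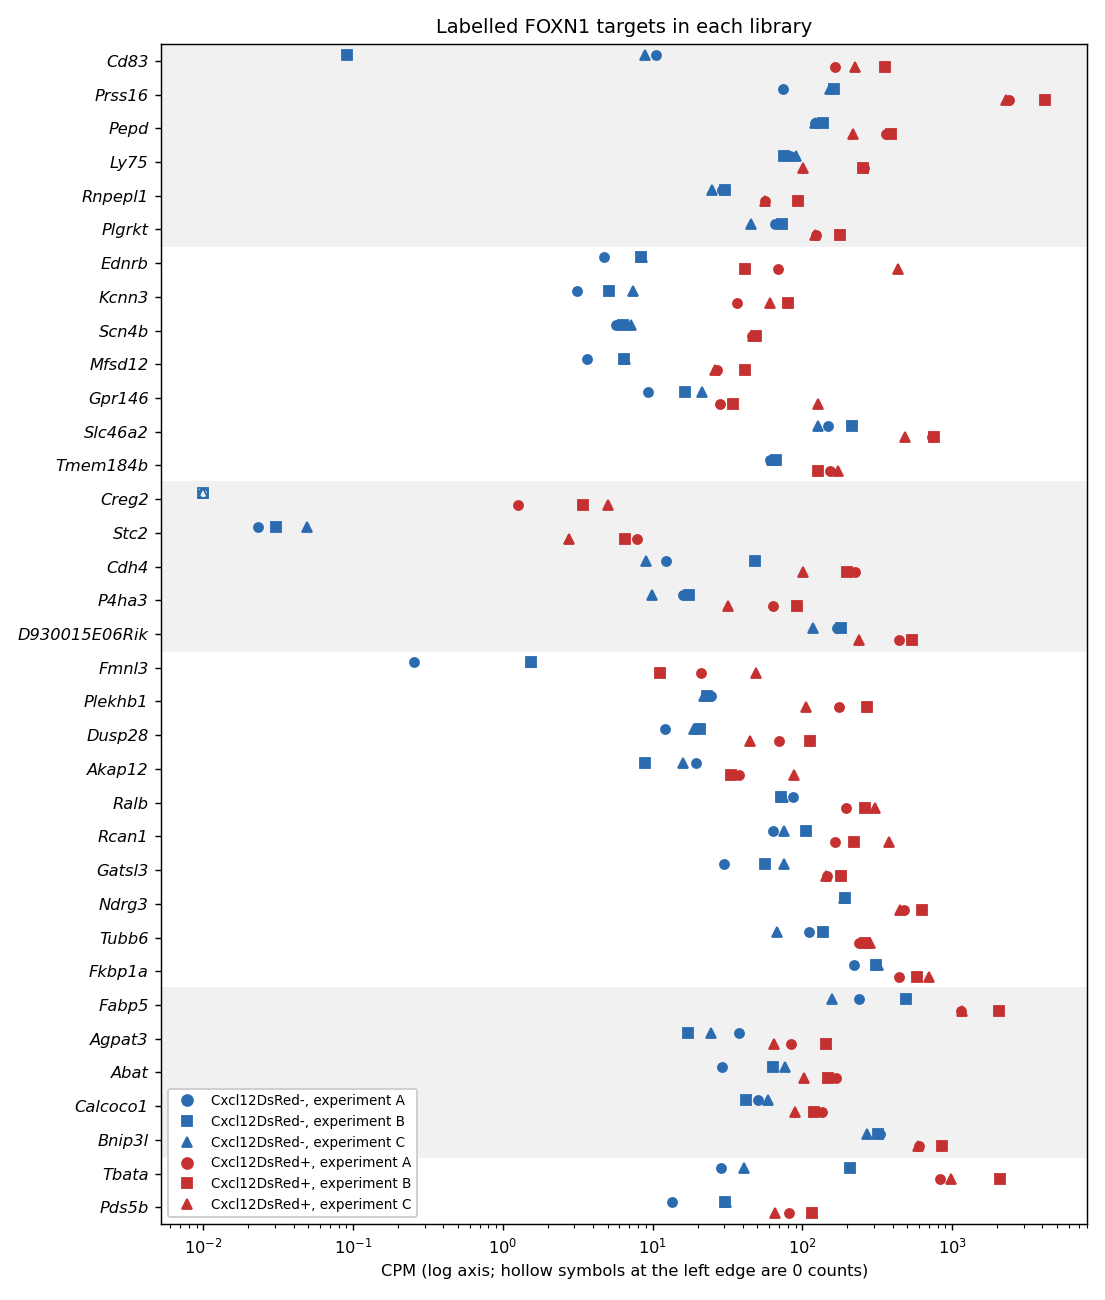
CPM (log axis) of each of the 35 labelled targets in the 3 Cxcl12DsRed- libraries (blue) and the 3 Cxcl12DsRed+ libraries (red), with the experiment given by the symbol and the roles set apart by shading; hollow symbols at the left edge stand for 0 counts. In every row the blue symbols lie to the left of the red ones, and Cxcl12DsRed- levels run from 0 counts for *Creg2* to 488 CPM for *Fabp5*.

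**Figure D2:**
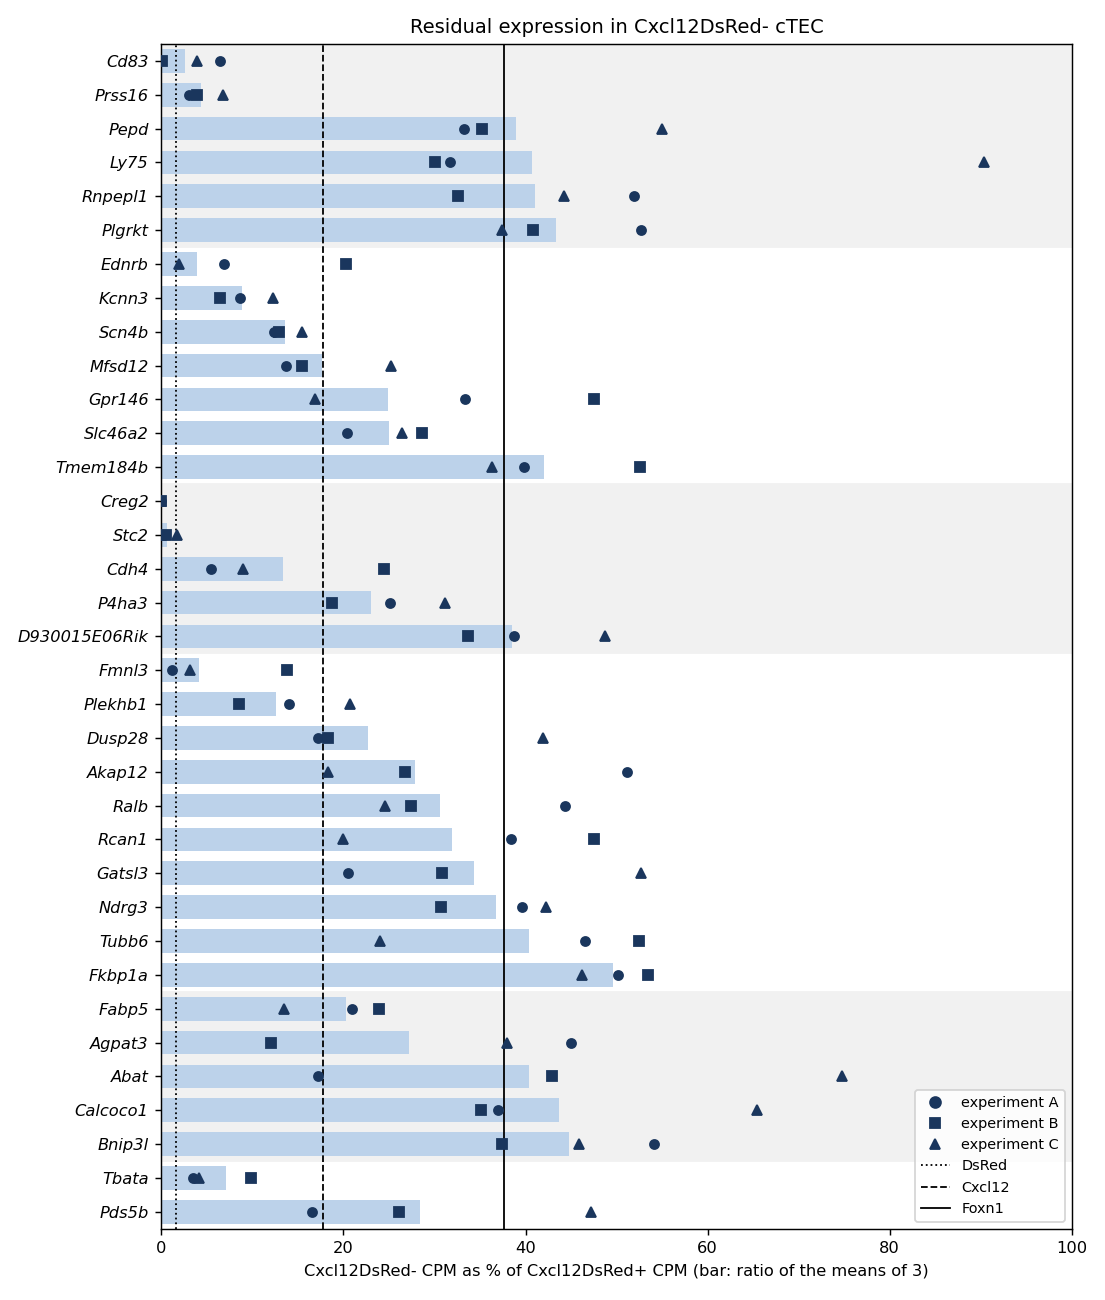
Cxcl12DsRed- CPM as a percentage of Cxcl12DsRed+ CPM for each labelled target, as the ratio of the means of 3 libraries (bars) and within each experiment (symbols), with vertical lines for DsRed (1.58%), *Cxcl12* (17.7%) and *Foxn1* (37.6%). No bar passes 50%, and the widest gap between experiments is that of *Ly75*, at 30.0% in B and 90.4% in C.

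Among 6 genes of antigen handling and peptide cleavage, *Cd83* and *Prss16* stood apart from the other 4. *Prss16* encodes the thymus-specific serine protease, which takes part in making the peptides that cTEC present on MHC class II. It was at 74.5, 163 and 153 CPM in Cxcl12DsRed- cTEC (experiments A, B and C), against 2412, 4193 and 2273 CPM in Cxcl12DsRed+ cTEC. Per kilobase of exon it was the most abundant of the 35 genes in Cxcl12DsRed+ cTEC (707 CPM per kilobase, a level above that of 99.6% of tested genes), and at a residual of 4.40% it still had 31.1 CPM per kilobase in Cxcl12DsRed- cTEC. Its residual ran from 3.09% in A to 6.72% in C, with B at 3.89%. Its log2 fold change was −4.51 (SE 0.43). *Cd83* encodes a membrane protein that slows the turnover of MHC class II on cTEC, and CD4+ thymocytes need it for their selection. Its Cxcl12DsRed- levels were 10.5, 0.0913 and 8.86 CPM, against 164, 355 and 225 CPM in Cxcl12DsRed+ cTEC. The B library held 3 counts of *Cd83*, where its Cxcl12DsRed+ partner held 17020. That makes a within-experiment residual of 0.0257% (exact 95% counting interval 0.00530 to 0.0752%), while A and C gave 6.41% and 3.94%. The spread among Cxcl12DsRed- libraries was thus 115-fold and the SE of its log2 fold change of −5.25 was 1.30.

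The remaining 4 genes of that group kept 38.9 to 43.3% of their level. *Ly75*, which encodes the endocytic receptor DEC-205 found on cTEC and dendritic cells, was at 82.2, 75.8 and 91.1 CPM in Cxcl12DsRed- cTEC, against 259, 253 and 101 CPM in Cxcl12DsRed+ cTEC. The Cxcl12DsRed- levels were close together, and the low Cxcl12DsRed+ library of C lay only just above them, with a residual of 90.4% in that experiment and 30.0 to 31.7% in the others. *Pepd*, the prolidase that splits dipeptides ending in proline, had 121 to 137 CPM in Cxcl12DsRed- cTEC and 219 to 390 CPM in Cxcl12DsRed+ cTEC (residual 38.9%). *Rnpepl1*, an aminopeptidase related to aminopeptidase B, had 24.8 to 30.3 CPM in Cxcl12DsRed- cTEC and 56.1 to 93.3 CPM in Cxcl12DsRed+ cTEC (41.0%). *Plgrkt*, a membrane receptor for plasminogen, had 45.3 to 73.1 CPM in Cxcl12DsRed- cTEC and 121 to 179 CPM in Cxcl12DsRed+ cTEC (43.3%).

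Channels, receptors and transporters made up 7 genes with a median residual of 17.7%. *Kcnn3*, a calcium-activated potassium channel, was at 3.14, 5.11 and 7.40 CPM in Cxcl12DsRed- cTEC, against 36.5, 79.6 and 60.4 CPM in Cxcl12DsRed+ cTEC (residual 8.87%, log2 fold change −3.49, SE 0.47). *Scn4b*, a beta subunit of voltage-gated sodium channels, varied least among the Cxcl12DsRed+ libraries: it was at 5.70, 6.36 and 7.21 CPM in Cxcl12DsRed- cTEC, against 46.3, 49.1 and 46.6 CPM in Cxcl12DsRed+ cTEC. Its residual was 12.3% in A, 12.9% in B and 15.5% in C (log2 fold change −2.88, SE 0.28). *Slc46a2*, the thymic stromal cotransporter of the folate transporter family, was far more abundant, at 149, 216 and 128 CPM in Cxcl12DsRed- cTEC, against 730, 754 and 484 CPM in Cxcl12DsRed+ cTEC (25.04%, a 3.99-fold lower mean). In Cxcl12DsRed+ cTEC its level per kilobase, 231.5 CPM, exceeded that of 98.4% of tested genes.

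*Mfsd12*, a transporter of lysosomes and melanosomes, had 3.67, 6.42 and 6.57 CPM in Cxcl12DsRed- cTEC, against 26.7, 41.4 and 26.0 CPM in Cxcl12DsRed+ cTEC (17.7%). Of its exon bases 29.8% are shared with *Fzr1* and another gene on the opposite strand, and since the use of strand in counting is not given in the sources used here, part of its reads may belong to either. *Tmem184b*, a multi-pass membrane protein, had even levels in both subsets, 60.8 to 66.4 CPM in Cxcl12DsRed- cTEC and 126 to 174 CPM in Cxcl12DsRed+ cTEC, with a residual of 42.0%. *Ednrb* and *Gpr146* differed from these in their Cxcl12DsRed+ libraries. *Ednrb*, the endothelin B receptor, was at 4.73, 8.37 and 8.44 CPM in Cxcl12DsRed- cTEC, against 68.8, 41.2 and 435 CPM in Cxcl12DsRed+ cTEC. *Gpr146*, a G protein-coupled receptor, was at 9.35, 16.4 and 21.4 CPM in Cxcl12DsRed- cTEC, against 28.0, 34.5 and 127 CPM in Cxcl12DsRed+ cTEC. For both, the Cxcl12DsRed+ library of C stood far above the other 2, and the residual within experiments ran from 1.94% (C) to 20.3% (B) for *Ednrb* and from 16.9% (C) to 47.5% (B) for *Gpr146*.

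Secreted, adhesion and matrix proteins held the 2 lowest residuals of the set. *Creg2*, a secreted glycoprotein of the CREG family, had 0 counts in every Cxcl12DsRed- library and 1.27, 3.44 and 5.03 CPM in the Cxcl12DsRed+ libraries. With a floor of 3 counts per library it was at least 41.5-fold lower in Cxcl12DsRed- cTEC. Its mean of 3.24 CPM in Cxcl12DsRed+ cTEC was the lowest of the 35, so it is the gene nearest to the study's minimum level, and the targets just outside that limit were not analysed here. Antisense *D930019O06Rik* shares 15.1% of its exon bases. *Stc2*, the secreted hormone stanniocalcin 2, had 4 counts in all 3 Cxcl12DsRed- libraries together, against 839 counts in the Cxcl12DsRed+ libraries (7.92, 6.51 and 2.78 CPM). The ratio of these summed counts, scaled to library size, was 0.570% with an exact 95% counting interval of 0.155 to 1.46%. Both genes were at the floor in Cxcl12DsRed- cTEC and low, but clearly counted, in all Cxcl12DsRed+ libraries. Such intervals cover counting error only.

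*Cdh4*, the adhesion molecule R-cadherin, was at 12.2, 48.6 and 9.08 CPM in Cxcl12DsRed- cTEC, against 223, 198 and 101 CPM in Cxcl12DsRed+ cTEC. The B library was the high one of the Cxcl12DsRed- group, and the residual of 13.4% was 6.57% without experiment B. *P4ha3*, a catalytic subunit of collagen prolyl 4-hydroxylase, had 16.0, 17.4 and 9.91 CPM in Cxcl12DsRed- cTEC and 63.5, 92.7 and 31.8 CPM in Cxcl12DsRed+ cTEC (23.0%). *D930015E06Rik*, now named *Tmem131l*, a membrane protein known in human thymocytes as a regulator of Wnt signalling, was the abundant member, with 117 to 182 CPM in Cxcl12DsRed- cTEC and 241 to 540 CPM in Cxcl12DsRed+ cTEC (38.5%).

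Signalling or the cytoskeleton accounted for 10 genes, with residuals of 4.11 to 49.6% and a median of 31.3%. *Fmnl3*, a formin that assembles actin filaments, was at 0.254, 1.55 and 1.55 CPM in Cxcl12DsRed- cTEC, against 21.1, 11.3 and 49.4 CPM in Cxcl12DsRed+ cTEC. It was the sole gene of the 10 below a residual of 5% (log2 fold change −4.61, SE 0.95). *Plekhb1*, a membrane-associated protein with a pleckstrin homology domain, was nearly constant in Cxcl12DsRed- cTEC, at 24.6, 23.0 and 21.9 CPM, against 176, 270 and 106 CPM in Cxcl12DsRed+ cTEC (12.6%, log2 fold change −2.99, SE 0.36). *Ralb*, a small GTPase of the Ras family, had 87.2, 71.7 and 74.6 CPM in Cxcl12DsRed- cTEC and 197, 262 and 303 CPM in Cxcl12DsRed+ cTEC (30.7%, log2 fold change −1.71, SE 0.22). *Ndrg3*, a member of the NDRG family that has been linked to lactate signalling, had 189, 194 and 191 CPM in Cxcl12DsRed- cTEC, where its libraries were the closest of any labelled target, and 477, 629 and 451 CPM in Cxcl12DsRed+ cTEC (36.8%, log2 fold change −1.44, SE 0.19). *Plekhb1*, *Ralb* and *Ndrg3* passed the quasi-likelihood test, but with the experiment as a replicate block their adjusted p was 0.0574, 0.0934 and 0.0778, and that of *Scn4b* 0.0614.

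The other 6 genes of the group kept 22.7 to 49.6% of their level. *Dusp28*, an atypical dual specificity phosphatase, had 12.0 to 20.8 CPM in Cxcl12DsRed- cTEC and 44.7 to 113 CPM in Cxcl12DsRed+ cTEC (22.7%). *Akap12*, a scaffold that anchors protein kinase A, had 19.4, 8.88 and 16.1 CPM in Cxcl12DsRed- cTEC, against 37.9, 33.2 and 88.0 CPM in Cxcl12DsRed+ cTEC (27.9%), and *Rcan1*, an inhibitor of calcineurin, had 63.7, 105 and 75.1 CPM in Cxcl12DsRed- cTEC, against 166, 222 and 376 CPM in Cxcl12DsRed+ cTEC (32.0%). In both, the C library was the high one among Cxcl12DsRed+ cTEC. *Gatsl3*, now named *Castor1*, the arginine sensor upstream of mTORC1, had 30.0, 56.0 and 75.6 CPM in Cxcl12DsRed- cTEC and 146, 181 and 144 CPM in Cxcl12DsRed+ cTEC (34.3%), so its spread lay in the Cxcl12DsRed- libraries. *Tubb6*, a beta-tubulin, kept 40.4%, with 68.0 to 137 CPM in Cxcl12DsRed- cTEC and 238 to 283 CPM in Cxcl12DsRed+ cTEC. *Fkbp1a*, the binding protein of FK506 and rapamycin, had the smallest difference of all 35, with 221, 311 and 322 CPM in Cxcl12DsRed- cTEC and 440, 583 and 698 CPM in Cxcl12DsRed+ cTEC (49.6%, log2 fold change −1.01, SE 0.25). Its residual was even, at 46.2 to 53.5% by experiment. *Fkbp1a* is also a gene whose printed promoter stretch holds the motif on both strands.

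Metabolic and organelle genes, 5 in number, had a median residual of 40.3%. *Fabp5*, an intracellular carrier of fatty acids, had the highest level per kilobase of the 35 in Cxcl12DsRed- cTEC, 82.5 CPM. It was at 238, 488 and 157 CPM in Cxcl12DsRed- cTEC, against 1138, 2041 and 1168 CPM in Cxcl12DsRed+ cTEC (20.3%, log2 fold change −2.30, SE 0.47). *Agpat3*, an acyltransferase of phospholipid synthesis, was at 37.5, 17.3 and 24.7 CPM in Cxcl12DsRed- cTEC, against 83.3, 143 and 65.0 CPM in Cxcl12DsRed+ cTEC (27.25%, the median of the set). The low Cxcl12DsRed- and the high Cxcl12DsRed+ library of *Agpat3* came from the same experiment, B, where its residual was 12.1%, against 45.0% in A and 37.9% in C. *Abat*, the transaminase that breaks down GABA, was at 29.1, 63.7 and 76.5 CPM in Cxcl12DsRed- cTEC and 169, 148 and 102 CPM in Cxcl12DsRed+ cTEC, with residuals of 17.2%, 42.9% and 74.8% in A, B and C. *Calcoco1*, a receptor for selective autophagy, had 41.8 to 58.5 CPM in Cxcl12DsRed- cTEC and 89.6 to 136 CPM in Cxcl12DsRed+ cTEC (43.7%), and *Bnip3l*, a mitophagy receptor on the outer mitochondrial membrane, had 270 to 327 CPM in Cxcl12DsRed- cTEC and 588 to 851 CPM in Cxcl12DsRed+ cTEC (44.8%). Both autophagy receptors thus lay at the upper end of the residuals.

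*Tbata* encodes a protein of the thymus, brain and testis that in mice is found in thymic epithelium. It was at 28.6, 206 and 40.9 CPM in Cxcl12DsRed- cTEC, against 828, 2089 and 980 CPM in Cxcl12DsRed+ cTEC (7.08%, log2 fold change −3.82, SE 0.86). Experiment B gave the highest level in both subsets, and its residual of 9.88% lay above the 3.46% of A and 4.18% of C. Per kilobase *Tbata* was second to *Prss16* among the labelled targets in Cxcl12DsRed+ cTEC, at 535 CPM. *Pds5b*, a regulator of cohesin, had 13.5, 30.5 and 30.8 CPM in Cxcl12DsRed- cTEC and 81.4, 117 and 65.2 CPM in Cxcl12DsRed+ cTEC (28.4%).

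The order of the Cxcl12DsRed+ libraries differed among the labelled targets, with B most often the highest and C most often the lowest. Among the Cxcl12DsRed+ libraries, B held the highest level for 20 genes, C for 10 and A for 5, while over all tested genes the shares were 30.5%, 35.9% and 33.6%. C held the lowest level for 20, and the share of all tested genes for this was not computed. The ratio of C to the mean of A and B was 7.92 for *Ednrb*, 4.04 for *Gpr146*, 3.05 for *Fmnl3*, 2.47 for *Akap12*, 2.13 for *Creg2* and 1.94 for *Rcan1*, and the summed endothelial markers had a ratio of 7.42. At least 2 was reached by 5 of the 35 genes and by 13.9% of all tested genes, and the C library lay below the mean of A and B for 24 of the 35. It lay at or above that mean for 11 of the 35 and for 47.4% of all tested genes. Of the 22 endothelial markers, 19 had every Cxcl12DsRed- library below every Cxcl12DsRed+ library, *Pecam1* stood at 1.67 to 13.1 CPM in Cxcl12DsRed- cTEC and 124 to 927 CPM in Cxcl12DsRed+ cTEC, and none of the 22 was at 0 in all libraries. The part of endothelial RNA in the difference of any labelled target was not tested. Without experiment C, which was set aside for this after its values were seen, the residual was 11.9% for *Ednrb*, against 3.95% with it, 41.2% for *Gpr146* (24.9% with it), 39.7% for *Akap12*, 43.6% for *Rcan1*, 5.58% for *Fmnl3* and 52.0% for *Fkbp1a*. The median over the 35 was 24.6% without C.

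**Figure D3:**
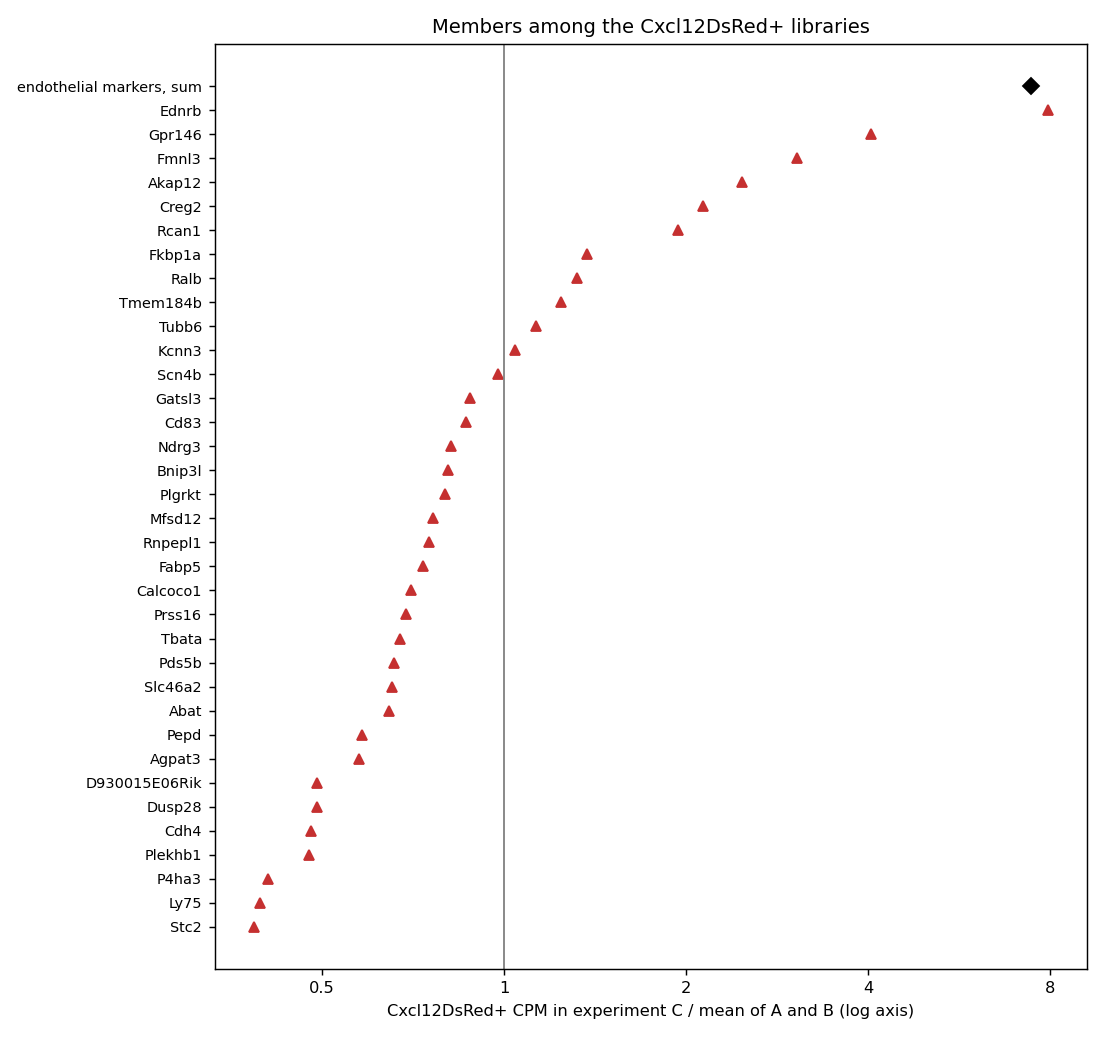
CPM of each labelled target in the Cxcl12DsRed+ library of experiment C divided by the mean of the A and B libraries (log axis), with the sum of 22 endothelial markers as a diamond. *Ednrb* (7.92) lies beside the endothelial sum (7.42), 11 genes lie above 1 and 24 below it, down to 0.386 for *Stc2*.

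Setting each labelled target beside its paralogues showed how the rest of its gene family stood. The list, made by gene family and not by how genes moved, held 57 paralogues in 27 families, of which 53 were tested. None was called in either direction by edgeR's quasi-likelihood test (0.623% of all tested genes were). By the same test, 6 of the 53 had an unadjusted p under 0.05, as had 1840 of all 15576 tested genes. The likelihood ratio test and DESeq2 each called 3 of the 53: *Stc1*, *Fabp4* and *Tmem184a*. Of all 15576 tested genes, they called 880 and 1081. The median log2 fold change of the paralogues was 0.14, with 21 below 0 and 32 above. Every Cxcl12DsRed- library lay below every Cxcl12DsRed+ library for 4 paralogues (9.32% of all tested genes lay below), and above for 7 (9.73% of all tested genes lay above). In 25 of 27 families the labelled target had the lowest log2 fold change, which its selection favours, the exceptions being *Fabp5* with *Fabp4* below it and *Tubb6* with *Tubb4a* below it.

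Because a family share divides out the family total, it shows which relative carried the remaining RNA. The labelled target's share of its family's CPM per kilobase was lower in every Cxcl12DsRed- library than in any Cxcl12DsRed+ library in 20 of 27 families, which the selection also favours. *Prss16* made up 72.8 ± 13.5% of its family with *Prcp* and *Dpp7* in Cxcl12DsRed- cTEC and 98.8 ± 0.796% in Cxcl12DsRed+ cTEC (SD, n = 3 each). *Prcp*, a lysosomal carboxypeptidase, was itself at 38.6, 61.7 and 10.2 CPM in Cxcl12DsRed- cTEC and 15.8, 14.0 and 45.8 CPM in Cxcl12DsRed+ cTEC, with overlapping groups. *Kcnn3* held 14.6 ± 6.61% of the calcium-activated potassium channel family in Cxcl12DsRed- cTEC and 67.1 ± 6.52% in Cxcl12DsRed+ cTEC, and its relative *Kcnn4* had 6.39 to 12.6 CPM in Cxcl12DsRed- cTEC and 4.43 to 15.1 CPM in Cxcl12DsRed+ cTEC. *Plekhb1* held 29.1 ± 5.39% in Cxcl12DsRed- cTEC and 79.1 ± 6.44% in Cxcl12DsRed+ cTEC beside *Plekhb2*, which was at 96.5 to 175 CPM in Cxcl12DsRed- cTEC and 60.7 to 142 CPM in Cxcl12DsRed+ cTEC. The libraries of the subsets overlapped for all these relatives.

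*Fmnl3* made up 5.24 ± 4.75% of the formin-like family in Cxcl12DsRed- cTEC and 59.1 ± 15.1% in Cxcl12DsRed+ cTEC, while *Fmnl2* was at 22.3, 40.7 and 14.0 CPM in Cxcl12DsRed- cTEC and 13.2, 13.5 and 13.4 CPM in Cxcl12DsRed+ cTEC. *Ndrg3* held 23.8 ± 6.55% of the NDRG family in Cxcl12DsRed- cTEC and 50.04 ± 11.2% in Cxcl12DsRed+ cTEC, with *Ndrg2* as the most abundant relative. *Ralb* held 65.8 ± 5.06% in Cxcl12DsRed- cTEC and 85.4 ± 0.782% in Cxcl12DsRed+ cTEC beside *Rala*, whose levels of 20.6 to 26.5 CPM in Cxcl12DsRed- cTEC and 18.4 to 32.0 CPM in Cxcl12DsRed+ cTEC overlapped. *Slc46a2* held 65.4 ± 5.19% in Cxcl12DsRed- cTEC and 88.8 ± 1.48% in Cxcl12DsRed+ cTEC, and *Slc46a1*, the proton-coupled folate transporter, stood at 60.02 to 76.0 CPM in Cxcl12DsRed- cTEC and 58.4 to 81.5 CPM in Cxcl12DsRed+ cTEC. *Creg1* overlapped as well, with 68.4 to 96.2 CPM in Cxcl12DsRed- cTEC and 68.8 to 89.1 CPM in Cxcl12DsRed+ cTEC. *Bnip3*, the mitophagy receptor closest to *Bnip3l*, had 105 to 142 CPM in Cxcl12DsRed- cTEC and 117 to 136 CPM in Cxcl12DsRed+ cTEC. *Cdh1*, which encodes E-cadherin, had 880, 877 and 816 CPM in Cxcl12DsRed- cTEC, above the 810, 522 and 247 CPM of Cxcl12DsRed+ cTEC, where *Cdh4* lay the other way.

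Some relatives lay on the same side as the labelled target. *Stc1*, the other stanniocalcin, was at 4.92, 10.8 and 2.88 CPM in Cxcl12DsRed- cTEC, against 19.96, 19.5 and 53.1 CPM in Cxcl12DsRed+ cTEC, with no overlap and a log2 fold change of −2.31. *Fabp4*, a fatty acid carrier of fat and endothelial cells, was at 96.1, 123 and 17.9 CPM in Cxcl12DsRed- cTEC, against 210, 415 and 3628 CPM in Cxcl12DsRed+ cTEC, and its C library of Cxcl12DsRed+ cTEC again stood far above the other 2. *Ndrg1* and *Agpat4*, named after their values were seen, also lay lower without overlap. *Ndrg1* was at 66.5, 58.2 and 70.3 CPM in Cxcl12DsRed- cTEC, against 107, 88.7 and 273 CPM in Cxcl12DsRed+ cTEC, and *Agpat4* at 30.8, 28.9 and 25.01 CPM in Cxcl12DsRed- cTEC, against 35.7, 32.0 and 65.3 CPM in Cxcl12DsRed+ cTEC. *Ednra* overlapped, with 0.116, 9.68 and 6.15 CPM in Cxcl12DsRed- cTEC and 6.14, 8.49 and 35.1 CPM in Cxcl12DsRed+ cTEC. *Tmem184a* went the other way from *Tmem184b*: it was at 88.3, 97.9 and 59.5 CPM in Cxcl12DsRed- cTEC, above the 44.5, 32.3 and 21.8 CPM of Cxcl12DsRed+ cTEC (log2 fold change 1.32). The share of *Tmem184b* in the CPM per kilobase of its family was 37.3 ± 0.574% in Cxcl12DsRed- cTEC and 65.2 ± 9.01% in Cxcl12DsRed+ cTEC.

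**Figure D4:**
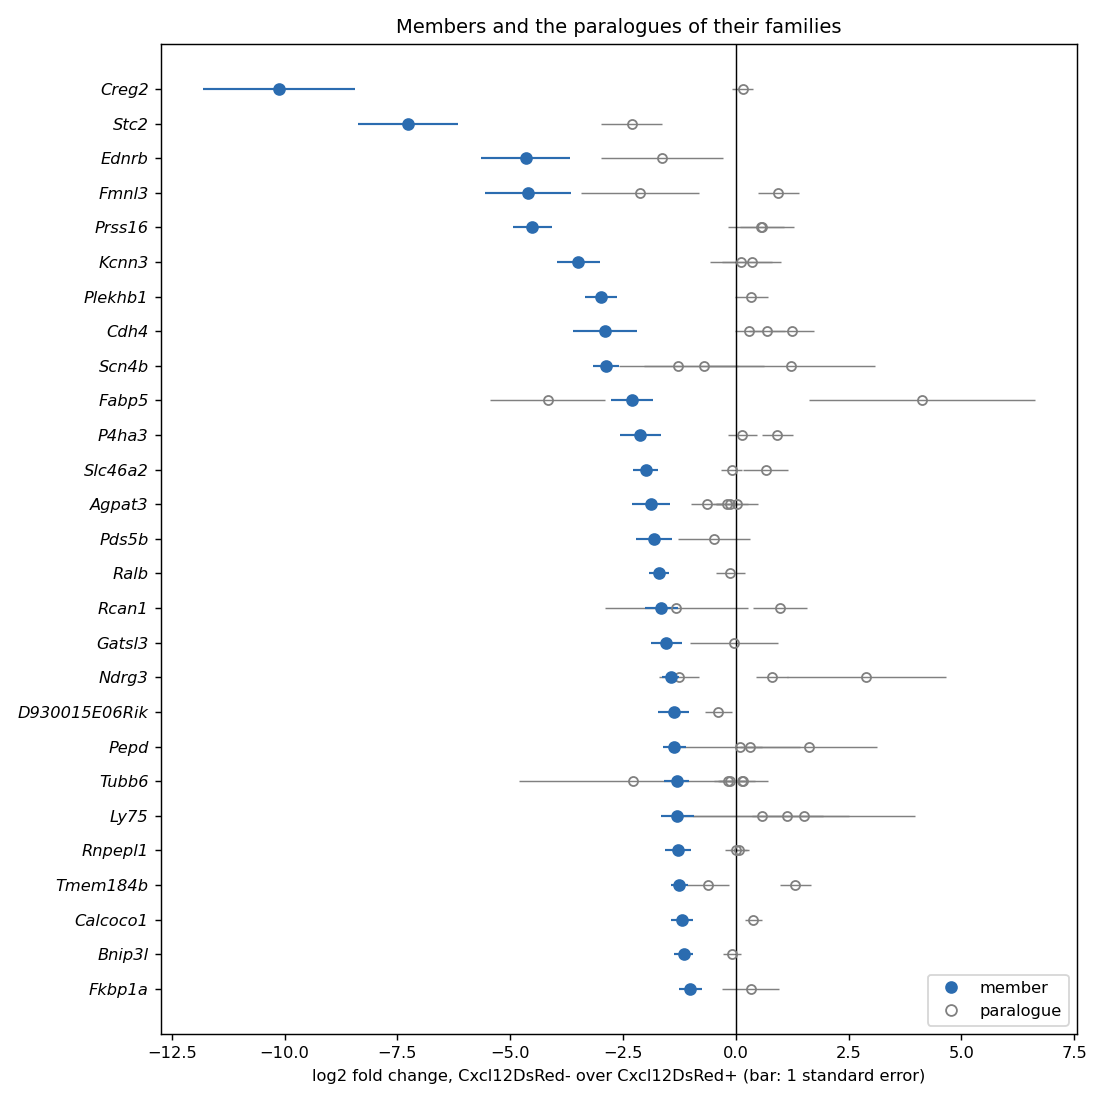
log2 fold change, Cxcl12DsRed- over Cxcl12DsRed+, of the labelled target (filled) and its tested paralogues (open) in each of the 27 families, with bars of 1 standard error. The filled symbols lie from −10.12 to −1.01, and most open symbols lie around 0, with a median of 0.14. The lowest filled symbol is *Creg2*, with 0 counts in every Cxcl12DsRed- library, so its size is not fixed by the counts.

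The 35 genes lay on 15 chromosomes, and few were neighbours. *Dusp28* and *Rnpepl1* were adjacent on chromosome 1 of GRCm38 on the same strand, 2347 bases apart with no coding gene between them. The coding genes on either side, *Ankmy1* and *Capn10*, had log2 fold changes of −1.82 (SE 2.02) and −0.64 (SE 0.35), and neither passed the test. *P4ha3* and *Plekhb1* lay 323192 bases apart on chromosome 7. The 8 coding genes between them included 7 that were tested, with log2 fold changes of −0.81 to 1.60 and none past the test. *Ucp2*, the most abundant of these, stood at a mean of 722 CPM in Cxcl12DsRed- cTEC and 621 CPM in Cxcl12DsRed+ cTEC.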

How the data were processed

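Poly(A) RNA of 3 Cxcl12DsRed- and 3 Cxcl12DsRed+ cTEC libraries was sequenced. The authors deposited whole-number counts per gene from HTSeq, after trimming (Trimmomatic 0.36) and alignment to the mm10 genome (STAR 2.7.3a). Neither the annotation nor the strand setting of the counting is stated in the sources used here. The 39277 table entries held 39179 genes, 92 spike-in names with 0 counts, 5 HTSeq summaries and the DsRed reporter, and only genes entered library sizes and tests. Reads in no gene came to 5.87 to 9.35%, ambiguous reads to 1.21 to 1.38% and multimapped reads, which were not counted, to 5.61 to 9.07% of the counts in genes, so genes with close copies are uncertain. Symbols came from GENCODE annotation of GRCm38 (37607 IDs), with older names matched through RefSeq synonyms.

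Genes were kept by filterByExpr (minimum count 10), scaled by TMM and tested with edgeR 4.0.16 in R 4.3.3 by the quasi-likelihood test with Benjamini-Hochberg adjustment at 0.05. SEs were computed from the log2 fold change and its F statistic. The members and gene lists were chosen with earlier results of these data known. All labelled targets are named, and of the paralogues each past an adjusted p of 0.05 and the most abundant of each family; other relatives, neighbours and markers were named after their values were seen. The study describes 3 separately sorted biological replicates per subset, and its legend calls the plotted values a technical triplicate of 1 of the experiments; the sample labels give experiments A, B and C, which were followed. The labels tie both subsets to experiments A, B and C, taken as pairs for the residuals within experiments. The main test had no term for the experiment, which entered only as a block in an alternative fit. Deviations from group means correlated at 0.0106 (A), 0.0778 (B) and 0.0716 (C) within experiments. Between subsets of different experiments they correlated at −0.0948 to 0.0037. The test was tested on simulated data. Alternatives were edgeR's likelihood ratio test, a block for the experiment, DESeq2 1.42.0, limma 3.58.1 with voom, other size factors and filters, library sizes computed without the other cell types' marker genes, and fits lacking a library or an experiment.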

Additional observations from a re-analysis of the deposited data

How the results depend on the processing

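Of the 35 labelled targets, 7 were called lower by edgeR's quasi-likelihood test, 33 by its likelihood ratio test, 35 by DESeq2 and 1 by limma voom, and 0 to 3 when a library or an experiment was left out. With the experiment as a replicate block 5 were called: *Scn4b*, *Plekhb1*, *Ralb* and *Ndrg3* were lost and *Tbata* and *Fabp5* gained, and the block changed no other call among them. Of *Foxn1* and 9 other labelled targets, 2 were called lower, and 9 by the likelihood ratio test, 8 by DESeq2, 0 by limma voom and 0 to 2 in the leave-outs. No paralogue was called, but 3 were by the likelihood ratio test and 3 by DESeq2. The cause was not tested. The members' median log2 fold change stayed between −2.06 and −1.74 throughout. Over the 18 alternatives, the single-gene values gave 502 of 630 on the same side of the threshold, 70 that lost a call, 58 that gained one and none with a changed direction. Over all genes 97 were called, and 73 with the replicate block, 880 by the likelihood ratio test, 1081 by DESeq2, 4 by limma voom, 168 without a filter, 139 without the Cxcl12DsRed- library of C, 1 without the Cxcl12DsRed+ library of C, 35 without experiment C and 0 in every other leave-out. DESeq2 gave no adjusted p for 532 genes. Few counts limit how precisely *Creg2* and *Stc2* are known, with 0 and 4 counts in Cxcl12DsRed- cTEC. That also holds for *Cd83* in the B library (3 counts) and *Fmnl3* in the A library (11 counts) of that group. These B and A libraries held 34574900 and 44969195 counts in genes, and the C library of that group 39411518. Why the 2 genes were so low there was not tested.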

Other observations

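Within the Cxcl12DsRed- group, the order of the libraries differed among the labelled targets, with A most often the lowest. The Cxcl12DsRed- library of experiment B was the highest of its group for 16 of the 35 genes and the lowest for 6. That of experiment A was the highest for 7 and the lowest for 18, and that of C the highest for 12 and the lowest for 11. Over all tested genes the highest was A for 33.4%, B for 34.7% and C for 31.9%. The share of all tested genes for the lowest was not computed. *Cd83* had 3 counts in the B library, and so did *Dll4*, the Notch ligand of cTEC, which was at 2.75, 0.0913 and 2.46 CPM in Cxcl12DsRed- cTEC, against 47.7, 41.0 and 130 CPM in Cxcl12DsRed+ cTEC. The same B library held the highest Cxcl12DsRed- levels of *Tbata*, *Cdh4*, *Prss16* and *Fabp5*, and of *Ccl25*, the chemokine that draws in thymocyte progenitors, at 14.9, 325 and 15.4 CPM in Cxcl12DsRed- cTEC, against 869, 2233 and 1207 CPM in Cxcl12DsRed+ cTEC. These genes were singled out after their values were seen, and a single library carries the pattern.

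Both motifs of *Mfsd12* and both motifs of *Fkbp1a* start 49 bases apart, in each case GCGTC upstream and GACGC downstream. Of the 1465 tested promoter windows with exactly 2 such motifs, 11 had this distance and 4 also this order of strands. Both counts include the windows of *Mfsd12* and *Fkbp1a* themselves. This was noticed after the letters were read, and no binding was measured here.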
